A study of Mus musculus with 6 samples.

Results

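The ephrin, semaphorin and Slit guidance genes were compared between somatic cells of the fetal mouse testis and embryonic stem cells. The 60 genes comprise the EphA and EphB receptors, the ephrin-A and ephrin-B ligands, the semaphorins, the plexins, neuropilins 1 and 2, the Slit ligands and the Robo receptors. They were picked by symbol, under a rule set with earlier results of these data known. Each array probe's transcript identifier was first matched to a RefSeq gene table, and 76 probes matched all 60 genes, out of 19751 genes with a symbol and a probe. The soma group holds 3 samples of gonadal somatic cells from male embryos at E13.5, from animals of background MCH x C57BL6/J that carry the transgene given as Oct5<delta>PE-GFP. The 3 ESC samples came from VR15, male embryonic stem cells with a Vasa::RFP transgene. RNA of each sample was hybridised to its own 1-colour Agilent array, and the labels call the samples of a group biological replicates. ESC is thus represented by 1 line, and the labels do not say how many embryos went into a soma sample.

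Eph receptors are tyrosine kinases that are activated by ephrins on neighbouring cells. Ephrin-A ligands are tethered to the membrane by a lipid anchor and ephrin-B ligands span it, and signals pass in both directions. Semaphorins signal through plexins, and most of the secreted class 3 semaphorins need a neuropilin as co-receptor. Slits are large secreted proteins that bind Robo receptors. These systems are best known from growing axons, and they also position blood vessels and separate cell groups from one another in many tissues.

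Signals are given relative to the 75th percentile of the gene probes on the same array, so that a value of 1 is that percentile. Such values compare arrays for 1 probe and do not rank 1 gene against another. A gene was tested when the scanner software marked its probe as well above background on each of the 3 arrays of soma, of ESC or of both. Of the 60 genes 57 passed, 47 of them well above background on all 6 arrays. All 3 soma arrays were above background for 55 genes and all 3 ESC arrays for 49. Epha6 and Plxnb3 were well above background on 1 soma array and no ESC array, Epha10 on no soma array and 1 ESC array, and none of these 3 was tested.

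The guidance genes stood mostly higher in soma. Of the 57 tested 36 (63.2%) were higher in soma, 12 (21.1%) were lower in soma and 9 did not pass an adjusted p of 0.05 (limma on all 19661 genes, Benjamini-Hochberg). Differences of at least 2-fold numbered 30 genes (52.6%) higher in soma and 6 (10.5%) lower. Over all 19661 genes 84.9% were called, 38.3% higher and 46.6% lower in soma. Of the 19661, 14194 had a symbol, and the rest were array identifiers without one, each counted as a gene. Among the 14194, 5769 were higher and 6552 lower in soma, with a median log2 difference of -0.10. The balance of all genes turned with the scaling, with 8359 higher and 7637 lower in soma under spike-in scaling and 6530 higher and 10225 lower under scaling to the array median. The guidance genes called higher and lower numbered 37 and 11 under spike-in scaling and 35 and 14 under scaling to the array median. At 2-fold the shares of all genes were 23.2% and 24.2%. So the share of guidance genes called in either direction, 84.2%, was near that of all genes, and the directions were split otherwise. The median log2 difference, soma minus ESC, was 1.11 for the 57 guidance genes, against -0.14 for all genes. The filter favours genes that are high in 1 group, and among the 47 genes above background on all 6 arrays 29 were higher and 10 lower in soma, together 83.0%, against 83.9% of all genes above background on all 6 arrays. When the filter itself asked for all 6 arrays, 5667 of 16074 genes were higher and 7989 lower in soma, with a median log2 difference of -0.21. The 3 soma values and the 3 ESC values did not overlap for 48 of the 57 genes, and for 87.2% of all genes.

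**Figure D1:**
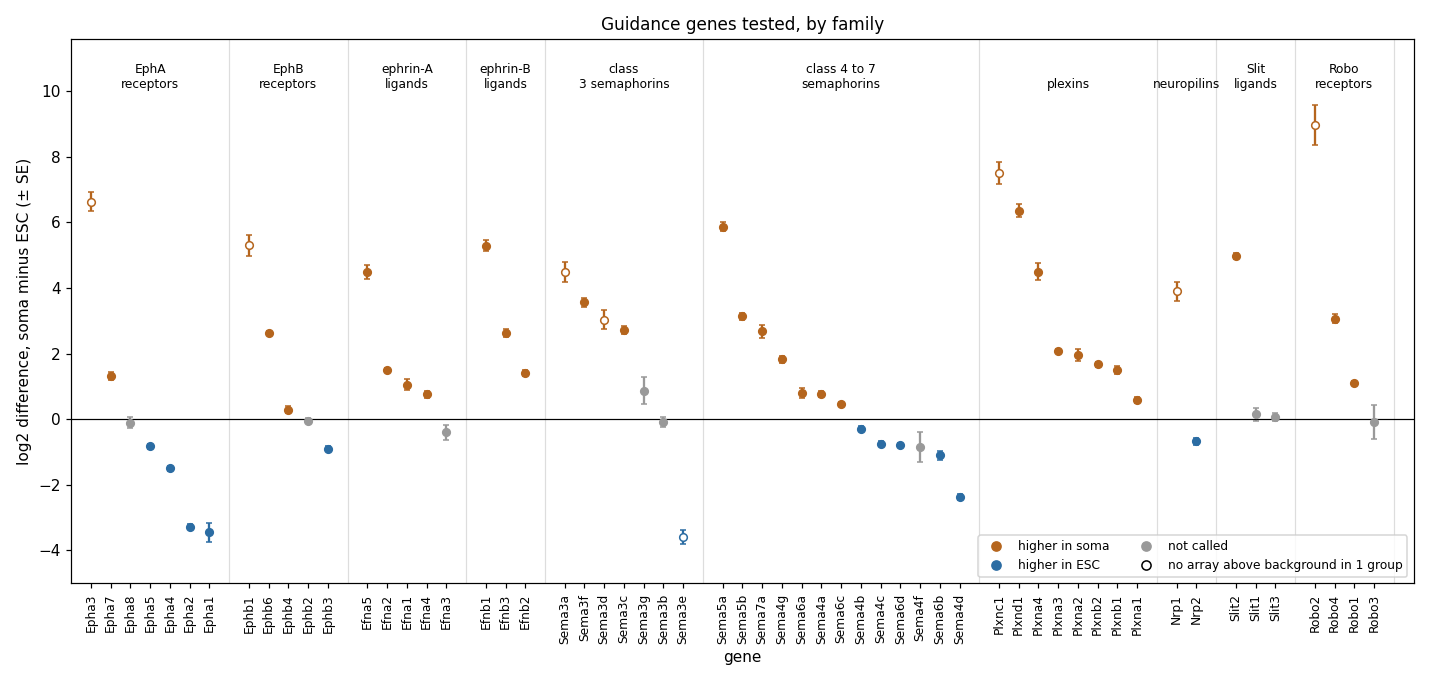
The log2 difference, soma minus ESC, of each of the 57 guidance genes tested is plotted by family, with the SE of the limma fit as bars (3 arrays per group). Open circles mark the 8 genes with no array above background in 1 group, whose plotted difference is not a measured size; all 8 plexins lie above 0, and the EphA receptors reach from above 6 to below -3.

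**Figure D2:**
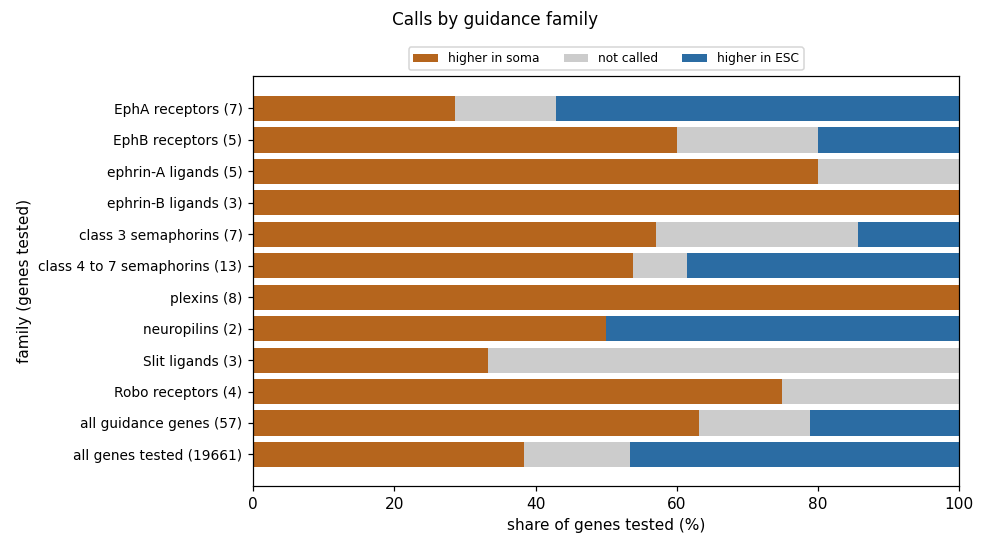
Bars give the share of genes tested in each family, in percent, that were higher in soma, not called or higher in ESC, with the number tested in brackets. All 8 plexins and all 3 ephrin-B ligands were higher in soma, and the bottom bar gives the 19661 genes of the whole comparison.

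Soma and ESC carried the markers of their labels. All 12 Sertoli markers and all 10 interstitial markers were higher in soma, and all 10 pluripotency markers were lower, with summed relative signals of 4.35 to 5.78 in soma and 189.6 to 220.9 in ESC. Markers of other cells were measured in soma too. All 5 erythroid markers (804 to 852.4 in soma and 0.117 to 0.154 in ESC) and all 7 leukocyte markers (6.74 to 7.19 in soma and 0.690 to 0.996 in ESC) were higher in soma. Of 7 germ cell markers 2 were higher in soma, 3 lower and 2 did not pass. They summed to 5.58, 7.54 and 9.96 on soma 1 to 3 and to 10.2 to 11.5 in ESC. Their median deviations from the soma mean were -0.53, 0.05 and 0.49 (log2) on soma 1 to 3. Those of the pluripotency markers were -0.36, 0.12 and 0.28. Of 8 neuron and Schwann cell markers 2 were higher and 5 lower in soma, and Elavl3, Stmn2 and Foxd3 were not well above background on any soma array. All 5 fetal Leydig markers (78.9 to 80.2 in soma and 3.05 to 3.49 in ESC) and 5 of 6 smooth muscle and pericyte markers (35.2 to 42.1 in soma and 21.9 to 36.5 in ESC) were higher in soma. Of 5 mesonephric epithelium markers 4 were lower in soma and Emx2 was higher, and the 5 summed to 1.09 to 1.12 in soma and 8.13 to 8.54 in ESC. The 12 endothelial markers summed to 9.10 to 11.2 in soma and 13.6 to 14.0 in ESC. Of the endothelial markers 8 were higher in soma, 3 were lower and 1 did not pass, and Cdh5, Tie1, Emcn, Sox18 and Ptprb were not well above background on any ESC array. The part of these cell types in the guidance gene values was not tested. In such bulk samples fewer cells of a type and less RNA per cell cannot be told apart. Each scan held arrays of 1 group, so that scan and group cannot be told apart either. On the slide that holds soma 3 and the 3 ESC arrays, the median log2 difference was 1.07 for the guidance genes and -0.11 for all genes. These medians rest on 1 soma array, which was scanned apart from the ESC arrays, so they cannot separate scan from group.

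Ephrin-B ligands were all higher in soma. Efnb1, the ligand whose loss disturbs cell sorting in craniofacial tissue, had a relative signal of 30.1, 29.7 and 32.2 in soma, against 0.586, 0.912 and 0.886 in ESC. Its difference was 39.3-fold (5.30 ± 0.18 on the log2 scale, SE, n = 3 per group, limma adjusted p 1.48e-06). The soma values were close to each other and far above all ESC values. Efnb3 had 1.95, 1.71 and 1.66 in soma and 0.252, 0.334 and 0.280 in ESC, a difference of 6.15-fold. Efnb2, which marks arteries in the vessel wall, had 1.87, 1.84 and 1.91 in soma and 0.623, 0.786 and 0.732 in ESC, 2.64-fold. In both cases the lowest soma array lay above the highest ESC array.

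Higher levels in soma were called for 4 of the 5 ephrin-A ligands. Efna5 stood at 5.11, 5.49 and 6.30 in soma and at 0.187, 0.324 and 0.256 in ESC, a difference of 22.5-fold (4.49 ± 0.21, SE, n = 3 per group, adjusted p 4.97e-06). Efna2 had 0.993, 0.963 and 1.07 in soma, against 0.344, 0.366 and 0.357 in ESC. Efna1 had 0.986, 0.956 and 0.832 in soma, against 0.351, 0.476 and 0.520 in ESC. The groups did not overlap in any of the 3, and the differences of Efna2 and Efna1 were 2.83-fold and 2.08-fold. Efna4 differed by 0.76 ± 0.12 (log2, SE, n = 3 per group, adjusted p 0.0011 by limma). Efna3 differed by -0.40 ± 0.23 (adjusted p 0.14 by limma), with overlapping arrays, and passed at -0.60 when the arrays were scaled to their medians.

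The EphA receptors, which bind mainly ephrin-A ligands, were split in direction. Epha3 stood at 0.738, 0.632 and 0.844 in soma and at 0.0113, 0.00529 and 0.00668 in ESC, where no array was well above background. It was at least 25.8-fold higher in soma (limma adjusted p 3.77e-06). For this bound a dim array counts at its lowest signal that was still well above background, or at the probe's own value if that was larger. The adjusted p beside a bound is that of the fit on the readings themselves. A bound holds only for the processed signal used here. Under normexp background correction Epha3 differed by 3.39 (log2), less than its bound of 4.69. The same was true of each other guidance gene tested that had a bound. Epha7 had 0.464, 0.472 and 0.459 in soma and 0.216, 0.157 and 0.191 in ESC, or 2.49-fold (log2 difference 1.32, and 2.56 as the mean of its probes).

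Epha2 and Epha1 went the other way. Epha2, a receptor that is also studied in epithelia and tumours, had 1.16, 1.02 and 1.06 in soma, against 9.65, 10.5 and 11.2 in ESC. It was 9.68-fold lower in soma (-3.27 ± 0.08 on the log2 scale, SE, n = 3 per group, limma adjusted p 5.88e-07). Epha1 had 0.274, 0.259 and 0.152 in soma, against 1.78, 3.02 and 2.64 in ESC, and was 10.9-fold lower in soma (-3.45 ± 0.30, adjusted p 7.39e-05). Soma 3 lay below the other soma arrays for Epha1, and no soma value reached the lowest ESC value for either gene. Epha4, a receptor that binds both ephrin classes, had 0.262, 0.284 and 0.260 in soma and 0.775, 0.702 and 0.795 in ESC, 2.82-fold lower in soma. Epha5 was 1.77-fold lower in soma, with arrays at 8.07, 8.44 and 7.48 in soma and 14.1, 13.2 and 15.1 in ESC. Epha8 did not pass (-0.11 ± 0.16, adjusted p 0.558 by limma).

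Among the EphB receptors, which bind mainly ephrin-B ligands, 3 were higher in soma, 1 was lower and 1 did not pass. Ephb1 had 0.559, 0.569 and 0.551 in soma and 0.0122, 0.00992 and 0.0237 in ESC, where no array was well above background. It was at least 19.7-fold higher in soma (limma adjusted p 1.4e-05). Ephb6, whose kinase domain lacks activity, had 2.28, 2.19 and 2.19 in soma and 0.359, 0.365 and 0.343 in ESC, a difference of 6.24-fold with almost no spread within groups. Ephb3 stood at 18.6, 18.9 and 16.7 in soma and 33.1, 31.4 and 36.4 in ESC, and was 1.86-fold lower in soma (log2 difference -0.90, and -0.29 under quantile normalization). Ephb2 did not pass (-0.05 ± 0.07, adjusted p 0.561 by limma), and it passed below 0 under quantile normalization (-0.19) and scaling to the array median (-0.24).

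Ephb4, the receptor for ephrin-B2 that marks veins, lay near the threshold. Its arrays read 2.56, 2.18 and 2.50 in soma and 1.77, 2.02 and 2.14 in ESC, which differed by 0.29 ± 0.10 on the log2 scale (SE, n = 3 per group, limma adjusted p 0.0337). Soma 2 exceeded ESC 3 only slightly. The call was lost when soma 1, soma 3, ESC 1 or ESC 2 was left out (0.22 to 0.31). It was also lost on the slide that holds both groups (0.35) and under scaling to the array median (0.10). A further probe of Ephb4 gave 1.11 ± 0.10.

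Class 3 semaphorins are secreted, and 4 of the 7 tested were higher in soma, 1 was lower and 2 did not pass. Sema3f, which acts through neuropilin 2, had 7.36, 7.43 and 7.68 in soma and 0.508, 0.702 and 0.701 in ESC, a difference of 11.9-fold (3.57 ± 0.14, SE, n = 3 per group, adjusted p 2.3e-06). Sema3c had 3.19, 3.46 and 3.99 in soma and 0.479, 0.587 and 0.542 in ESC, or 6.61-fold. Both genes kept a wide gap between the lowest soma and the highest ESC array. Sema3a, the founding repellent of the class, which acts through neuropilin 1, had 0.421, 0.349 and 0.365 in soma and 0.0231, 0.0198 and 0.0103 in ESC. Sema3d had 0.0717, 0.0649 and 0.0732 in soma and 0.00722, 0.00637 and 0.0133 in ESC. No ESC array was well above background for Sema3a or Sema3d, which were higher in soma by at least 13.3-fold and at least 2.45-fold (limma adjusted p 2.61e-05 and 0.000102).

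Sema3e was the only class 3 gene called lower in soma in this comparison. It had 0.0189, 0.0158 and 0.0142 in soma, where no array was well above background, against 0.149, 0.250 and 0.198 in ESC. Its level was at least 7.52-fold lower in soma (limma adjusted p 1.29e-05). Sema3e binds plexin D1 directly, without a neuropilin. Sema3g, a semaphorin of vessels, had 0.115, 0.108 and 0.113 in soma and 0.119, 0.0461 and 0.0419 in ESC (0.87 ± 0.40, adjusted p 0.087 by limma). ESC 1 alone overlapped soma, and without it Sema3g passed at 1.35, as it did under spike-in scaling at 1.08. Sema3b differed by -0.09 ± 0.16 (adjusted p 0.623 by limma).

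Semaphorins of classes 4 to 6 span the membrane and Sema7a is lipid-anchored, and of these 13 genes 7 were higher in soma, 5 lower, and 1 did not pass. Sema5a, a class 5 member with thrombospondin repeats, had 4.81, 5.13 and 5.21 in soma and 0.0706, 0.103 and 0.0871 in ESC. It was 58.7-fold higher in soma (5.87 ± 0.14, SE, n = 3 per group, adjusted p 5.38e-07), a difference of 5.07 under normexp background correction. Its relative Sema5b had 3.03, 2.98 and 3.14 in soma and 0.400, 0.332 and 0.314 in ESC, or 8.79-fold. Class 5 thus had both its members above 8-fold in soma. Sema7a had 2.89, 2.66 and 2.21 in soma and 0.311, 0.494 and 0.421 in ESC, 6.41-fold. Sema4g had 0.537, 0.512 and 0.536 in soma and 0.127, 0.158 and 0.165 in ESC, 3.55-fold. Sema6a, Sema4a and Sema6c were higher in soma by 1.75-fold, 1.69-fold and 1.39-fold.

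Sema4d, the ligand of plexin B1 that is also known from immune cells as CD100, had 0.314, 0.323 and 0.384 in soma and 1.77, 1.70 and 1.81 in ESC. It was 5.20-fold lower in soma (-2.38 ± 0.09, SE, n = 3 per group, adjusted p 2.09e-06). Sema6b had 0.0304, 0.0303 and 0.0409 in soma, with 2 of the 3 arrays above background, and 0.0685, 0.0746 and 0.0727 in ESC, 2.14-fold lower in soma. Neither gene had overlapping groups. Sema6d, Sema4c and Sema4b were lower in soma by 1.72-fold, 1.68-fold and 1.23-fold. The call of Sema4c was lost under quantile normalization (-0.11), and that of Sema4b under spike-in scaling (-0.08) and on the slide that holds both groups (-0.28). Sema4f varied more within soma than any other guidance gene tested, at 0.0942, 0.0270 and 0.0526, against 0.0920, 0.108 and 0.0795 in ESC. It differed by -0.85 ± 0.45 (adjusted p 0.122 by limma) and passed at -1.29 without soma 1, at -0.55 under normexp background correction and at -0.81 on the slide that holds both groups.

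All 8 plexins tested, the receptors of the semaphorins, were higher in soma, 7 of them by at least 2-fold. Plxnd1 had 19.4, 18.6 and 19.9 in soma and 0.170, 0.291 and 0.261 in ESC, a difference of 82.2-fold (6.36 ± 0.20, SE, n = 3 per group, adjusted p 1.2e-06). Plxnc1, the receptor of Sema7a, had 3.40, 3.43 and 3.27 in soma and 0.0108, 0.0221 and 0.0262 in ESC, where no array was well above background. It was at least 118-fold higher in soma (limma adjusted p 3.8e-06). For both plexins the soma arrays agreed closely.

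The plexins of class A, which pair with neuropilins, were all higher in soma. Plxna4 had 1.33, 1.22 and 1.18 in soma and 0.0401, 0.0802 and 0.0509 in ESC, 22.7-fold (log2 difference 4.50, and 3.35 under normexp background correction). Plxna3 had 1.08, 1.16 and 1.13 in soma and 0.268, 0.268 and 0.256 in ESC, 4.25-fold. Plxna2 had 1.97, 1.87 and 2.06 in soma and 0.389, 0.648 and 0.511 in ESC, 3.89-fold. In these 3 genes the lowest soma array was well clear of the highest ESC array. Plxna1 was 1.49-fold higher in soma (0.58 ± 0.10, adjusted p 0.00178 by limma). Of class B, Plxnb2, a receptor of class 4 semaphorins, had 19.0, 18.6 and 19.6 in soma and 5.36, 6.06 and 6.59 in ESC, 3.18-fold. Plxnb1 had 0.551, 0.569 and 0.446 in soma and 0.164, 0.192 and 0.193 in ESC, 2.85-fold. Soma 3 was the lowest soma array for Plxnb1 and still lay above all ESC arrays.

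The 2 neuropilins, co-receptors of class 3 semaphorins and of VEGF, went opposite ways. Nrp1 had 0.199, 0.190 and 0.198 in soma and 0.00987, 0.0209 and 0.0110 in ESC, where no array was well above background, and was at least 6.88-fold higher in soma (limma adjusted p 3.42e-05). Nrp2 had 4.20, 3.71 and 3.94 in soma and 7.01, 5.59 and 6.44 in ESC, and was 1.60-fold lower in soma (-0.68 ± 0.10, SE, n = 3 per group, adjusted p 0.000909). A further probe of Nrp2 gave -0.77 ± 0.13.

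Slit2 alone passed among the 3 Slit ligands tested. Slit2 had 5.26, 5.19 and 5.65 in soma and 0.155, 0.166 and 0.189 in ESC, a difference of 31.7-fold (4.99 ± 0.09, SE, n = 3 per group, adjusted p 2.39e-07). Slit1 and Slit3 differed by 0.15 ± 0.19 and 0.06 ± 0.13 (adjusted p 0.502 and 0.671 by limma), with overlapping arrays. Higher levels in soma were called for 3 of the 4 Robo receptors.

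Robo2, a receptor of Slit2 with known roles in urogenital development, had 5.55, 5.83 and 6.03 in soma and 0.0313, 0.00687 and 0.00725 in ESC. No ESC array was well above background, although ESC 1 read higher than the other ESC arrays. Robo2 was at least 204-fold higher in soma on the probe used for the gene (limma adjusted p 2.28e-05). A further Robo2 probe, also with no ESC array above background, was at least 76.2-fold higher in soma. Robo4, a Robo of endothelial cells, had 1.23, 1.02 and 0.838 in soma and 0.121, 0.122 and 0.121 in ESC, 8.38-fold. Soma 1 was the highest soma array for Robo4, and the endothelial markers deviated from their soma mean by a median of 0.20, -0.04 and -0.17 (log2) on soma 1 to 3. The Sertoli markers deviated by 0.17, 0.01 and -0.17 on the same arrays. The part of either cell type in the Robo4 value was not tested. Robo1 had 3.25, 3.52 and 3.27 in soma and 1.66, 1.47 and 1.53 in ESC, 2.15-fold. Robo3, near background, differed by -0.10 ± 0.51 (adjusted p 0.868 by limma) and passed at -0.68 without ESC 3.

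**Figure D3:**
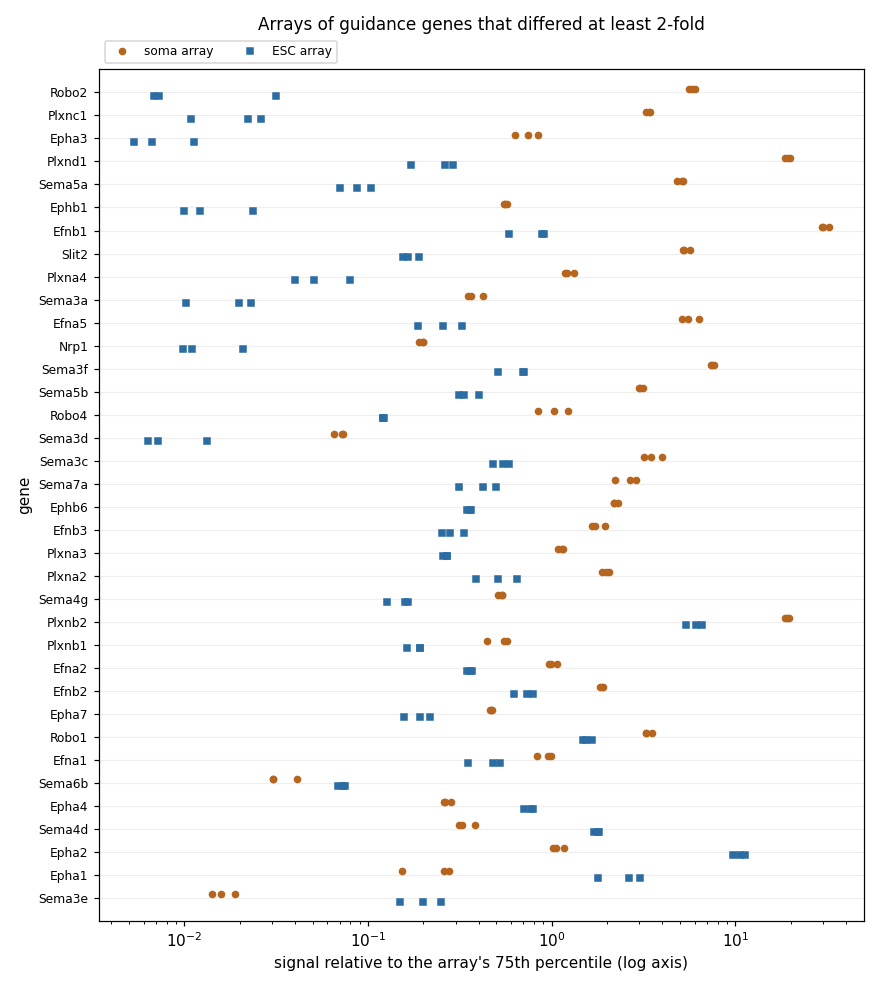
Each row shows the 3 soma arrays (circles) and the 3 ESC arrays (squares) of 1 gene that was called with a difference of at least 2-fold, as signal relative to the array's 75th percentile on a log axis. Of the 36 genes 30 are higher in soma and 6 in ESC. The groups do not overlap in any row, but the rows were chosen by call and size, and 87.2% of all 19661 genes did not overlap either.

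The 36 genes that differed at least 2-fold were looked up in a RefSeq table of promoter windows (build GRCm38.p6), which run from 250 bases before to 50 bases after each start. A window was found for 53 of all 60 guidance genes. Those of Slit2 and Plxnd1, higher in soma, and of Epha2 and Epha1, lower in soma, are shown 5′ to 3′ as examples of either direction. The capitals mark matches, on either strand, to a motif searched, here GGGCGG (the GC box bound by SP and KLF factors), AGGTCA (a half-site of nuclear receptors such as NR5A1) or TATAAA (the TATA box). They lie at chr5:47982905-47983204 on the plus strand for Slit2, chr6:115994956-115995255 on the minus strand for Plxnd1, chr4:141300971-141301270 on the plus strand for Epha2 and chr6:42373219-42373518 on the minus strand for Epha1.
Slit2: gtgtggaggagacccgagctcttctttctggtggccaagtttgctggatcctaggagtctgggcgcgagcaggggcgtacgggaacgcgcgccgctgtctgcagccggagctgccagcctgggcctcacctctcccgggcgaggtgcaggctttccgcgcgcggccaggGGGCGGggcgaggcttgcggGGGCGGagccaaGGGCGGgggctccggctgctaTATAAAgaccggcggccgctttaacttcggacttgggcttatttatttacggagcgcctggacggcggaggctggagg
Plxnd1: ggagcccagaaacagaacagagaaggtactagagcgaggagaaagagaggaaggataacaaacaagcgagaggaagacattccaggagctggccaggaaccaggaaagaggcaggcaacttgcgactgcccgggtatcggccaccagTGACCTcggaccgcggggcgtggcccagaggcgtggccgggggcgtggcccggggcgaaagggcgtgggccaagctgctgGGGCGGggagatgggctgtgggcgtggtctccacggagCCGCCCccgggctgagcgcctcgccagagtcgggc
Epha2: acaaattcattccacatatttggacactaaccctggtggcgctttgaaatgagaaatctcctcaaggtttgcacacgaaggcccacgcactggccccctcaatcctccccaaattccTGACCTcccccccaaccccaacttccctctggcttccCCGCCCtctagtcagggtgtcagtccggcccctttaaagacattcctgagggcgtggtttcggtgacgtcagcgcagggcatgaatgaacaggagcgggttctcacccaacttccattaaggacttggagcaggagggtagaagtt
Epha1: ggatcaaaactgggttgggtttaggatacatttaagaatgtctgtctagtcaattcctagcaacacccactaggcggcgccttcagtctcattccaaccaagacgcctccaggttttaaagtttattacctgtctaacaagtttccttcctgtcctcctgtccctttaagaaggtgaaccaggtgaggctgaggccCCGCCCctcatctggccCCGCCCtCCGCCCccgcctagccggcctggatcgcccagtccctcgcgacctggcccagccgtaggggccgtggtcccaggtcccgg

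Of the genes at least 2-fold higher in soma 27 had a window, with 32 windows in all, and the 6 lower in soma had 9. Shares and medians are over windows, so a gene with several starts counts more than once. GGGCGG was found in 21 of the 32 windows of genes at least 2-fold higher in soma (65.6%), in 7 of the 9 windows of those lower in soma (77.8%) and in 35.7% of all 32851 windows. Over all guidance genes tested that had a window it was found in 47 of 66 (71.2%), with a median GC content of 64.0%, so the share was no higher in the windows of genes higher in soma. AGGTCA was found in 5 windows of the genes higher in soma, 3 of those lower in soma and 16.3% of all windows. For TATAAA the counts in the same order were 2 and 0, against 13.6% of all windows. The SOX motif ACAATG was found in 3 windows of the genes higher in soma, 1 of those lower in soma and 12.6% of all windows. The GATA motif AGATAA gave 2 and 0, against 11.2%. No window of either set held the octamer ATGCAAAT, which 1.74% of all windows held. None of these motifs is part of another. Windows of the genes higher in soma had a median GC content of 66.7%, those of the genes lower in soma 56.0% and all windows 52.7%. A match describes these letters and is no evidence of binding.

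Some ligands and a receptor each is known to bind were set side by side, with pairs chosen after their values had been seen. Slit2 and Robo2 were both higher in soma, as were Sema7a and Plxnc1, Efna5 and Epha3, and Efnb1 and Ephb1. Sema3e and Plxnd1 went opposite ways, since the ligand was higher in ESC and the receptor higher in soma. The same held for Sema4d and Plxnb1. Epha2 and Epha1 were higher in ESC, whereas 4 of the 5 ligands of the ephrin-A class were higher in soma.

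**Figure D4:**
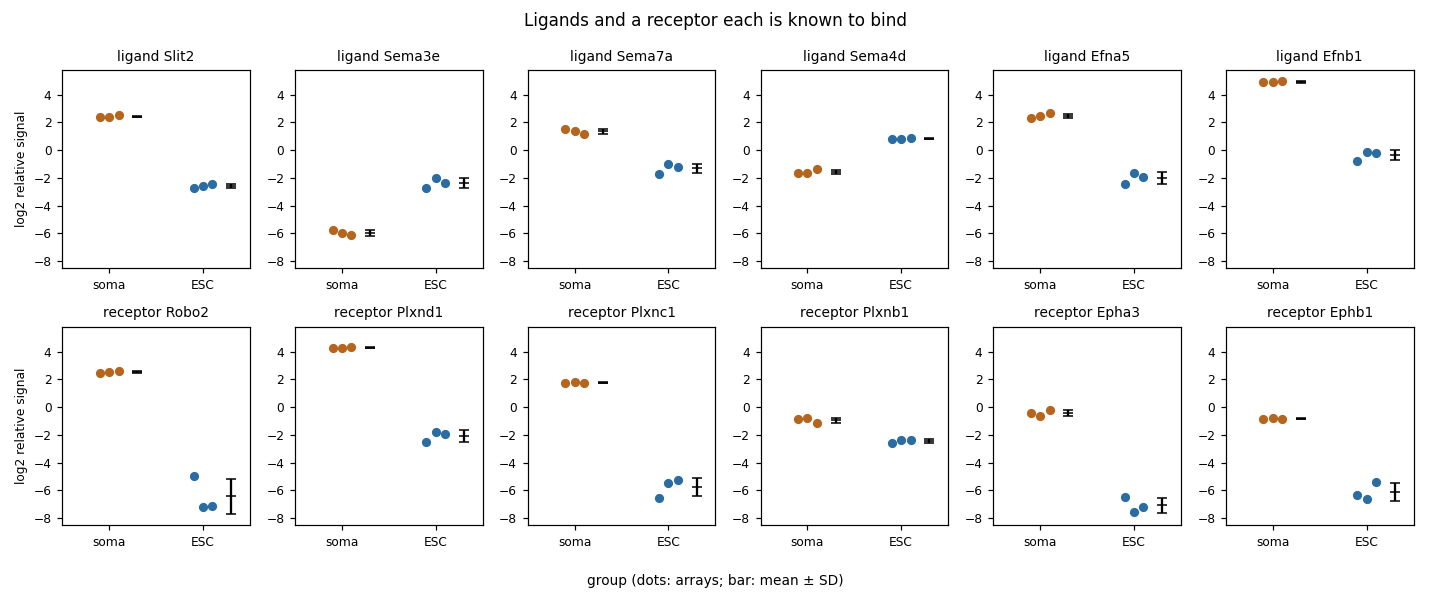
Each panel gives the log2 relative signal of 1 gene on the 3 soma arrays (left) and the 3 ESC arrays (right), with mean ± SD as bars, for 6 ligands (top) and a receptor of each (bottom). In the panels of Sema3e and Sema4d the ESC arrays lie above the soma arrays, and in the other 10 panels the soma arrays lie above.

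Probes of the same gene mostly gave the same direction. Of 9 guidance genes with several probes above the filter, 8 had every such probe called the same way. Epha7 gave 1.32 on the probe used for the gene and 3.11 and 3.24 on the others. Of these the first had 1 ESC array above background and the last had none. Plxnc1 was at least 118-fold higher in soma on the probe used, with no ESC array above background, and gave 3.50 on another with 1 ESC array above. Plxnd1 gave 6.36 on the probe used and 5.12 on another, which had 1 ESC array above background. Sema6d was the exception, with -0.78 ± 0.07 on the probe used and 1.37 ± 0.69 (adjusted p 0.11 by limma) on another. That other probe was above background on all 3 soma arrays and on 1 ESC array.

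**Figure D5:**
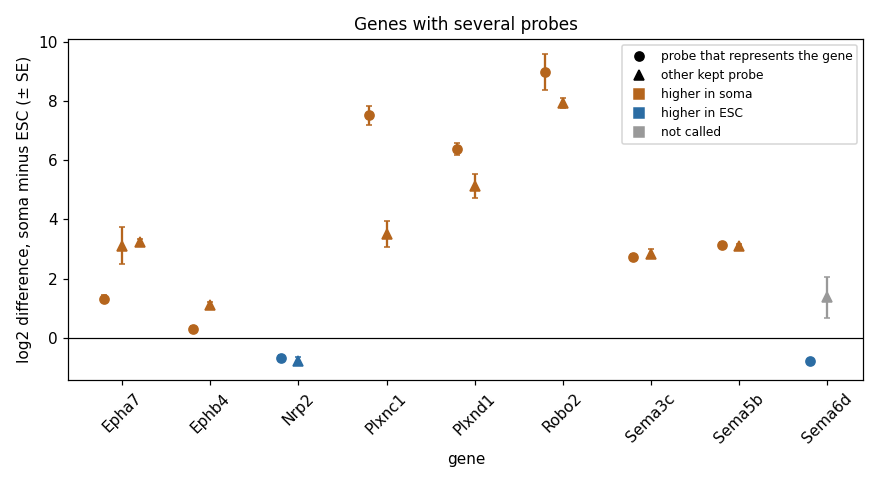
The log2 difference, soma minus ESC, of each kept probe is plotted with its SE for the 9 genes that have several, and circles mark the probe that represents the gene. Every kept probe lies on the same side of 0 as its gene's representative, apart from that of Sema6d.

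Other genes of the guidance pathways were taken from lists of partners. Beside the counts of each list stand the shares of all 19661 genes, of which 84.9% were called. Of all genes 38.3% were higher and 46.6% lower in soma, with a median log2 difference of -0.14. Of 47 partners and effectors tested 29 were higher in soma, 14 lower and 4 did not pass (median 0.70). The 3 with the smallest adjusted p were Ptpro, a phosphatase that acts on Eph receptors, at least 64.3-fold higher in soma, Adam10, a protease that cleaves ephrins, 6.51-fold higher, and the Robo-binding Srgap3, higher by 3.70 on the log2 scale. Adam10 had 7.01, 6.99 and 6.88 in soma and 1.02, 1.08 and 1.10 in ESC. Of 12 genes of the netrin, repulsive guidance molecule and FLRT systems tested 8 were higher in soma, 2 lower and 2 did not pass (median 2.02). Ntn3 was 24.1-fold higher in soma, and Unc5c, a netrin receptor, and Ntng1 were higher by at least 77.1-fold and at least 24.9-fold. The genes lower in soma, named after their values were seen, were Ntn1, which encodes netrin 1, at -5.02 ± 0.12 (log2, SE, n = 3 per group), and the netrin receptor gene Dcc at -0.67 ± 0.18. Of 7 genes of VEGF ligands and receptors, which share the neuropilins, 3 were higher in soma, 1 lower and 3 did not pass (median 0.03). On the log2 scale Vegfd and Pgf were higher in soma by 3.40 and 2.03, and Vegfc stood at -2.73.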

How the data were processed

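RNA of 3 soma and 3 ESC samples was measured on 6 one-colour arrays, labelled with Cy3 and with spike-in RNA per the labels' protocols. The deposited processed signal came from Feature Extraction 10.7.3.1, per the file headers, and is an intensity, background-subtracted and detrended within the array and not scaled between arrays. The authors' series matrix holds log2 values of unstated scale. It matched the log2 processed signal less the array's 75th percentile and each probe's median over the 6 arrays, and its column medians were 0.05, -0.25 and -0.07 for soma and 0.16, -0.09 and 0.06 for ESC. It served as an alternative. Columns of other kind used here, the marks for background, outliers and control spots, were deposited by the authors as the scanner software set them.

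Log2 processed signals were averaged over the spots of a probe without outlier marks and scaled by the 75th percentile, which was 959 to 1388 in signal units. Control spots (1377 per array) were left out, and 15 probe values had only outlier spots. Symbols came from a GRCm38.p6 gene table and named 66.1% of 39429 gene probes; probes named by Ensembl transcripts were not matched. Of several kept probes the brightest stood for its gene. Probes without a symbol were grouped by the array's own identifier, and each such identifier counted as a gene. Soma minus ESC was tested with limma 3.58.1 in R 4.3.3 (lmFit and eBayes, two-sided, Benjamini-Hochberg over 19661 genes), and the method was tested on simulated data. SE values are those of this fit. On the simulated data 8%, 32%, 74% and 86% of genes changed by 0.3, 0.5, 1 and 2 (log2) were called, with 50 genes per size. Of the 19461 genes left unchanged there 10 were called. In the real data 84.9% of all genes were called, and a simulation with that many changed genes was not tested. The number of arrays limits the precision, and no spot was saturated.

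The members, lists and rules were chosen with earlier results of these data known. Values on every array are given for guidance genes called with at least a 2-fold difference, and the 3 genes with the smallest adjusted p are named from each list of partner genes. Marker genes are named by their status against background, or, for Emx2, after its value was seen.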

Additional observations from a re-analysis of the deposited data

How the results depend on the processing

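The guidance genes called higher in soma numbered 35 to 37 under all alternatives but 2: the filter for genes above background on all 6 arrays, which left 47 genes and called 29, and the test against a log2 difference of 1, which called 27. Those called lower numbered 10 to 14, but 5 under that test, which also called 7588 genes in all against 16700; it asks for a larger difference by construction. The median log2 difference of the guidance genes was 1.18 under quantile normalization, 0.91 under scaling to the array median, 1.32 under spike-in scaling, 0.95 under normexp background correction (run on the spots' median signal) and 0.87 over genes above background on all 6 arrays. Leaving out 1 array gave 1.07 to 1.30, with 35 to 36 genes higher in soma, 12 to 13 lower and 36 to 37 at least 2-fold, and 16043 to 16577 genes called in all. Scaling moved the median of all genes by 0.12 (quantile), -0.196 (array median) and 0.212 (spike-in). Relative to it the guidance median was 1.21 under quantile normalization, against 1.25 as reported. Scaling to the array median or the spike-ins shifts every gene alike, so there the 1.25 was fixed beforehand and tests nothing. The 1 reversal was Sema6d, at 0.29 (adjusted p 0.436 by limma) as the mean of its probes; the probes' disagreement sets that mean, as it does for Plxnd1 (5.74). Under normexp Sema3d, Efna1 and Sema6b stood at 0.78, 0.95 and -0.57, below 2-fold, Sema5a and Plxna4 at 5.07 and 3.35, and bounds do not carry over to normexp (3.39 for Epha3, 6.26 for Robo2). With the replicate number as a block 16467 genes were called, with 35 guidance genes higher and 12 lower in soma and Ephb4 lost. Same-numbered arrays did not deviate together (r across genes -0.05, 0.07 and 0.03), and not every array correlated best with its own number. The gene names of the array's own column could not be tried, as the scanner files used here hold none. Signals of genes near background, such as Robo3, Sema4f and Sema6b, limit what can be said of them.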
